A study of Mus musculus with 2 samples.

Results

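Among melanocyte-lineage cells of mouse skin taken in early anagen, 278 cells carried the largest share of transcripts from 4 genes of the WNT feedback circuit, *Axin2*, *Nkd1*, *Sp5* and *Lef1*. They were the top 10% of 2785 cells of that library that passed the limits given below, out of 15337 cell barcodes in the 2 libraries analysed here. They are called WNT-high cells, a name for a count of transcripts and not for a measured signal. The 580 cells of the same library with no transcript of any of the 4 genes are called WNT-zero cells and served as the comparison. The other 1927 cells were split at the middle of their rank into 963 lower and 964 upper cells.

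Both libraries came from Dct-rtTA; tetO-H2B-GFP mice, in which the promoter of *Dct*, the gene of a melanin enzyme, drives the reverse tetracycline activator and so marks *Dct*-expressing cells with a nuclear green protein. The early-anagen library held GFP+ cells sorted from the back skin of 8-week-old mice 4 days after the hair had been plucked, a stimulus that starts a new hair cycle and calls melanocyte stem cells into activity. The bulb library held GFP+ cells from dissected hair bulbs of Anagen VI follicles at 5 weeks of age, the mature melanocytes that hand pigment to the hair. Each library combined 4 mice, so there was 1 sample per condition and cells within it were not replicates. No test between conditions was possible, and no p-value is given.

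In the canonical WNT pathway, a ligand bound to a Frizzled and LRP receptor pair stops the destruction complex from degrading β-catenin, which then enters the nucleus and acts with transcription factors of the TCF/LEF family. Several of its direct targets feed back on the pathway. *Axin2* encodes a scaffold of the destruction complex, *Nkd1* an inhibitor that binds Dishevelled, *Sp5* a zinc-finger repressor that dampens target genes, and *Lef1* a TCF/LEF factor itself. In the skin, WNT signals from the follicle epithelium are known to act on melanocyte stem cells as they begin to differentiate, and the melanocyte master regulator *Mitf* is a known target.

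The letters CTTTGA, the core that TCF/LEF factors recognise, were searched on both strands of the 250 bases before and 50 bases after each gene's start (RefSeq, GRCm38.p6). They were present in 16.2% of 27025 promoter windows, in 11.99% of the 4689 windows of genes tested below, and in 3 of the 15 pigmentation genes with a window, *Trpm1*, *Mc1r* and *Ap3d1*. Of the 4 genes that chose the cells, the *Sp5* window held them 2 times, and the windows of *Axin2*, *Nkd1* and *Lef1* did not hold them. The start used for *Axin2* and *Nkd1* lies inside the annotated gene, so their outermost start was not searched. The start used for *Oca2* lies inside its annotated gene as well, and the bases before its outermost start were searched only in part. The letters CATGTG, the core of the M-box that *Mitf* recognises, were in 14.1% of all windows, in 7.78% of those of tested genes, and in 7 of the 15 of pigmentation genes. The windows of 5 of those 7 genes are shown beside that of *Sp5*, because the transcripts of all 5 differed at least 2-fold between WNT-high and WNT-zero cells. Each is written 5′ to 3′ on the strand of its gene, with CTTTGA in the *Sp5* window and CATGTG in the others, or their reverse complement, in capitals. The *Trpm1* and *Mc1r* windows hold CTTTGA as well, on one strand or the other, left in lower case. The *Sp5* window is chr2:70474673-70474972 on the plus strand, that of *Oca2* chr7:56239509-56239808 on the plus strand and that of *Trpm1* chr7:64153585-64153884 on the plus strand. The *Tyr* window is chr7:87493463-87493762 on the minus strand, that of *Slc24a5* chr2:125067877-125068176 on the plus strand and that of *Mc1r* chr8:123406832-123407131 on the plus strand. In the *Oca2* and *Slc24a5* windows the M-box letters lie on the other strand. A match of letters is a description of the window and not a binding site.
Sp5: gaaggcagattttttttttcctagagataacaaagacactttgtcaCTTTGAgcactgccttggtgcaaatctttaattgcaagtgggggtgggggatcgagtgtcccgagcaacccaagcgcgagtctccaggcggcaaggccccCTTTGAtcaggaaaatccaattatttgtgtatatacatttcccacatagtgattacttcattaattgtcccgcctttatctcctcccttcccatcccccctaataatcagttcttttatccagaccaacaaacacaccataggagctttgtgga
Oca2: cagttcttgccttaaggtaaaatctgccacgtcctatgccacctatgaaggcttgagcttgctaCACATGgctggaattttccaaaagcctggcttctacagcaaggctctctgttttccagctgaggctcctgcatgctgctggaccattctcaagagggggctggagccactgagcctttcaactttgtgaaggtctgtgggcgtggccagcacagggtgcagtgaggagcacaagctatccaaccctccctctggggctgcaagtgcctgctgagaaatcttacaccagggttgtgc
Trpm1: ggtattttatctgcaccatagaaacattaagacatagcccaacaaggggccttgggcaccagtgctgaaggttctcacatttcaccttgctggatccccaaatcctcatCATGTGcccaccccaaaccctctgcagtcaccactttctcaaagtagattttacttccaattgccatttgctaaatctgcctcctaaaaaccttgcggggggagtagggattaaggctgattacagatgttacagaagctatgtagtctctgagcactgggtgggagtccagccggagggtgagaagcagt
Tyr: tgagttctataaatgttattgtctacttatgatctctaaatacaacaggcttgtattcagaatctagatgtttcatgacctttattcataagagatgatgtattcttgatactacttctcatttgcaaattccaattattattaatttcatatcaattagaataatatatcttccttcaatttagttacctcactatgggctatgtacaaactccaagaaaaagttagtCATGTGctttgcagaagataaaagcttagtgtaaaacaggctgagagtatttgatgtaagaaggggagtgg
Slc24a5: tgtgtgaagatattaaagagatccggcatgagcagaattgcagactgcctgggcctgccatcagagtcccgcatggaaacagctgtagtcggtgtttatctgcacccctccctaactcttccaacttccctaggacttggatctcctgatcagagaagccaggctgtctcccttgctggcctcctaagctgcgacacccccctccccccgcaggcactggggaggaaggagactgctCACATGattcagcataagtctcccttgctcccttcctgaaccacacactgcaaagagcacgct
Mc1r: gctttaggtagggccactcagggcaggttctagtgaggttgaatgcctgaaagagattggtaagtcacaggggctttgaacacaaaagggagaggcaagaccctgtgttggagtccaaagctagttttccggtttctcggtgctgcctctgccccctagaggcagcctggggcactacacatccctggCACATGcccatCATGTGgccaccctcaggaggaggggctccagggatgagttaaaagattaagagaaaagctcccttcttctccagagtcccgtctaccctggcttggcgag

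The early-anagen matrix held 11010 barcodes with 116800173 unique molecular identifiers (UMIs), each UMI standing for 1 captured transcript molecule, and the bulb matrix 4327 barcodes with 58161397 UMIs. The libraries had 1 barcode sequence in common. More than 10000 UMIs were found in 3769 early-anagen barcodes, and 3464 of these had under 5% of their UMIs from mitochondrial genes. At least 1 UMI of *Dct* was found in 3438 of those, and the limit of fewer than 3 UMIs of the keratin genes *Krt10* and *Krt14* removed 653 more. In the remaining 2785 cells the median share of the 4 WNT feedback genes was 0.81 per 10000 UMIs, from a median of 2 UMIs.

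The WNT-high cells were chosen on these UMIs, so the levels of the 4 genes in them are a description. Their median share was 3.05 per 10000 UMIs and the highest was 8.73, or 32 of 36654 UMIs. The lowest cell inside the top 10% had 5 of 20987 UMIs and the highest cell outside had 3 of 12597 UMIs, so the boundary fell between cells of nearly the same share. A single gene gave all of the UMIs in 16 WNT-high cells. In 90 cells 2 of the genes were detected, in 115 cells 3, and all 4 in 57 cells (20.5%). *Axin2* was found in 86.3% of WNT-high cells, *Nkd1* in 84.5%, *Lef1* in 65.1% and *Sp5* in 40.6%. From WNT-zero through the lower and upper cells to WNT-high cells, *Axin2* stood at 0, 27.1, 63.2 and 117 counts per 1000000 UMIs (CPM), over all UMIs. *Nkd1* stood at 0, 15.6, 43.4 and 124 CPM in the same order, *Sp5* at 0, 4.28, 13.9 and 37.5 CPM, and *Lef1* at 0, 8.28, 25.9 and 52.6 CPM. The plot of the chosen cells shows this order and the number of UMIs behind each share.

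**Figure D1:**
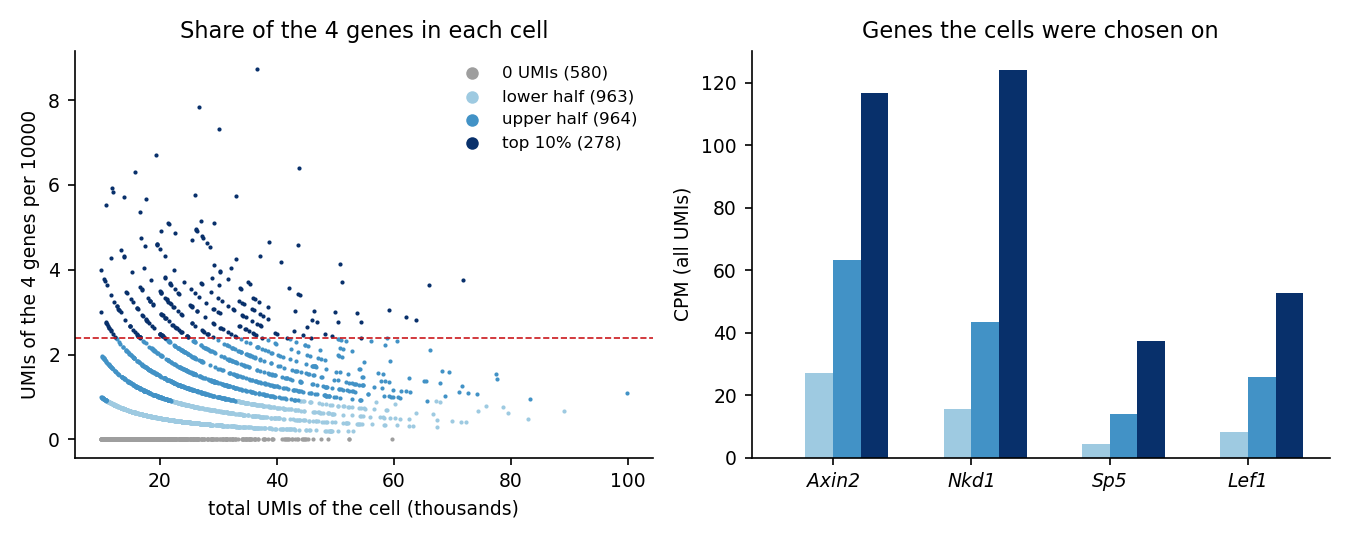
Choice of the WNT-high cells. Left, each point is 1 of the 2785 early-anagen cells, with its total UMIs on the x axis, its UMIs of the 4 genes per 10000 UMIs on the y axis, and the boundary of the top 10% as a dashed line. Right, bars of the CPM of *Axin2*, *Nkd1*, *Sp5* and *Lef1* in WNT-zero, lower, upper and WNT-high cells. The cells fall on curves of equal UMI number, the lowest of 1 UMI, and each gene rises from group to group.

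The groups differed in depth, for reasons that were not tested. The median was 17700.5 UMIs in WNT-zero cells, 27018 in the lower, 26695.5 in the upper and 23727.5 in WNT-high cells. All comparisons of WNT-high with WNT-zero cells were therefore made after random removal of UMIs from each cell until 10000 were left. The median number of genes then detected was 2908 in WNT-zero and 3019.5 in WNT-high cells. The median mitochondrial share was 3.05% and 3.37%. The choice of the cells itself used all UMIs, before this removal. Chosen on thinned UMIs instead, 329 WNT-high cells had a median depth of 25576 UMIs and 1198 WNT-zero cells one of 23463 UMIs.

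Part of the excess of the 4 genes in the chosen cells comes from counting noise at these low numbers, and 2 readings that the choice did not use show how much remained. When the UMIs of each cell were split at random and the top 10% chosen on one portion, the sum of the 4 genes was 370 CPM in that portion and 229 CPM in the other, against 65.5 CPM in the cells chosen as WNT-zero the same way. The remaining ratio was 3.50-fold (log2 ratio 1.81, 95% counting interval 1.66 to 1.95). Of the 278 cells chosen in this way, 186 were also WNT-high cells. When the cells were chosen on 3 genes and the omitted gene was read, *Nkd1* was at 64.0 CPM in the top and 20.5 CPM in the bottom cells (log2 ratio 1.64, interval 1.33 to 1.96). *Sp5* was at 18.3 and 4.62 CPM (1.99, 1.30 to 2.70), *Lef1* at 38.5 and 11.5 CPM (1.74, 1.31 to 2.18) and *Axin2* at 55.0 and 36.6 CPM (0.59, 0.31 to 0.86). Each of the 4 genes was thus higher in cells chosen on the other 3, and *Axin2* followed the others least. These intervals, and all others below, are exact for the ratio of 2 Poisson sums and cover counting error only.

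The labelled lineage was described by markers. *Dct* of the melanocyte list, at 9619 CPM in WNT-high and 8253 CPM in WNT-zero cells, also served the cell filter. So did *Krt10* and *Krt14* of the epidermal list, and these 3 genes are no check of the lineage. All 10 melanocyte markers were detected, with 34059 CPM summed in WNT-high and 23944 CPM in WNT-zero cells and a median log2 ratio of 0.50. Among these, *Ednrb*, *Tyr* and *Mlana* were at least 2-fold higher in WNT-high cells. With cells chosen on thinned UMIs 1 of the 10 passed 2-fold. None did against all other cells or with *Axin2*, *Sp5* or *Lef1* alone. Markers of other cell types were low in both groups. The 12 epidermal keratinocyte genes summed to 129 CPM in WNT-high and 210 CPM in WNT-zero cells, *Krtdap* being the most abundant over the groups, and 4 of them were abundant enough to be compared, 2 of these at least 2-fold lower in WNT-high cells, with a median log2 ratio of −1.44. These were *Krtdap* and *Sbsn*, with 95.1 and 91.3% of their WNT-zero UMIs in 1 cell. Without cells of 10 or more epidermal UMIs the median was 0.06, and 1 of the 4 was 2-fold lower. The 12 hair germ and matrix genes summed to 193 and 170 CPM, mostly from *Cdh3*, which had a log2 ratio of 0.07, and *Shh*, *Foxi3* and *Krt35* were at 0 UMIs in both groups. Of the hair shaft keratin *Krt25*, all 38 UMIs of the WNT-high cells lay in 1 cell. Of the 9 fibroblast and dermal papilla genes 4 were at 0, among them *Pdgfra* and *Col3a1*, and the sums were 2.88 and 0.862 CPM, with *Col1a2* giving 7 of the 8 UMIs in WNT-high cells. The 8 immune genes summed to 12.2 and 27.2 CPM, *H2-Aa* being the most abundant, with *Ptprc* at 0, and the 5 endothelial genes to 1.08 and 0.862 CPM, led by *Esam*, with *Pecam1* and *Cdh5* at 0. The 4 Merkel cell genes were at 0 in WNT-high and at 0.345 CPM in WNT-zero cells, from *Krt18* alone. No gene of the fibroblast, immune, endothelial or Merkel lists reached the level needed for a comparison.

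*Oca2*, which encodes an anion channel of the melanosome that sets its pH and is needed for dark pigment, was found far more often in WNT-high cells. At 10000 UMIs per cell, 81 of 278 WNT-high cells (29.1%, exact binomial 95% interval 23.9 to 34.9) had at least 1 *Oca2* UMI, against 18 of 580 WNT-zero cells (3.10%, 1.85 to 4.86). The share was 6.65% in the lower and 13.4% in the upper cells, so it rose at each step of the ranking. In CPM, *Oca2* was at 5.52 (3.77 to 7.79) in WNT-zero, 12.05 in lower, 31.5 in upper and 79.5 (69.4 to 90.7) in WNT-high cells. The ratio of WNT-high to WNT-zero cells was 14.4-fold (log2 ratio 3.85, interval 3.31 to 4.43), from 221 and 32 UMIs. The highest WNT-high cell held 10 *Oca2* UMIs, and over 2 in 3 WNT-high cells held none. Without thinning the shares were 4.66, 11.3, 22.1 and 37.8%. *Oca2* lies on chromosome 7 from 56239593 to 56536518 (GRCm38).

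The *Oca2* ratio was smaller under several other ways of choosing the cells and stayed above 1-fold in each setting tried. It was 2.92 on the log2 scale (73.0 against 9.65 CPM) when *Oca2* was read in the UMIs that the choice had not used, and 2.63 when the cells were chosen on thinned UMIs. Against all other cells it was 2.14, and with *Axin2*, *Lef1* or *Sp5* alone 1.76, 1.48 and 1.02. Free RNA in the droplets was gauged in 90 barcodes of the same library that were rich in keratinocyte transcripts (median 33132 UMIs). *Oca2* had a UMI in 1 of them at 10000 UMIs (1.11%, exact interval 0.0281 to 6.04), an interval that held the share in WNT-zero cells and lay below that in WNT-high cells. Over all UMIs *Oca2* was at 0.291 CPM (0.00736 to 1.62) in these barcodes, a value that rests on 1 UMI. It was at 5.41 CPM (4.16 to 6.93) in WNT-zero and 80.9 CPM in WNT-high cells. By level the WNT-zero cells were thus also above the barcodes. The part of free RNA in their *Oca2* UMIs was not tested.

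The WNT-high and *Oca2*+ cells overlapped in part, at a depth where a cell that expresses a gene can show no UMI of it. The 81 cells in both made up 29.1% of the WNT-high cells and 27.7% of the 292 cells with an *Oca2* UMI. Of the *Oca2*+ cells, 232 were assigned to G1, and the 69 of these that were WNT-high were 29.7% of them. The share was higher in WNT-high cells in each cell-cycle phase. In G1, 33.5% of WNT-high and 3.34% of WNT-zero cells had an *Oca2* UMI, in S 19.4 and 2.20%, and in G2/M 14.6 and 2.86%. The exact intervals of the groups were apart in G1 and overlapped in S and G2/M, where WNT-high cells were few. The plot of *Oca2* by group shows that the lower and upper cells lay between these values in G1 and S, while in G2/M the 4 shares were 2.86, 3.57, 3.45 and 14.6%.

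**Figure D2:**
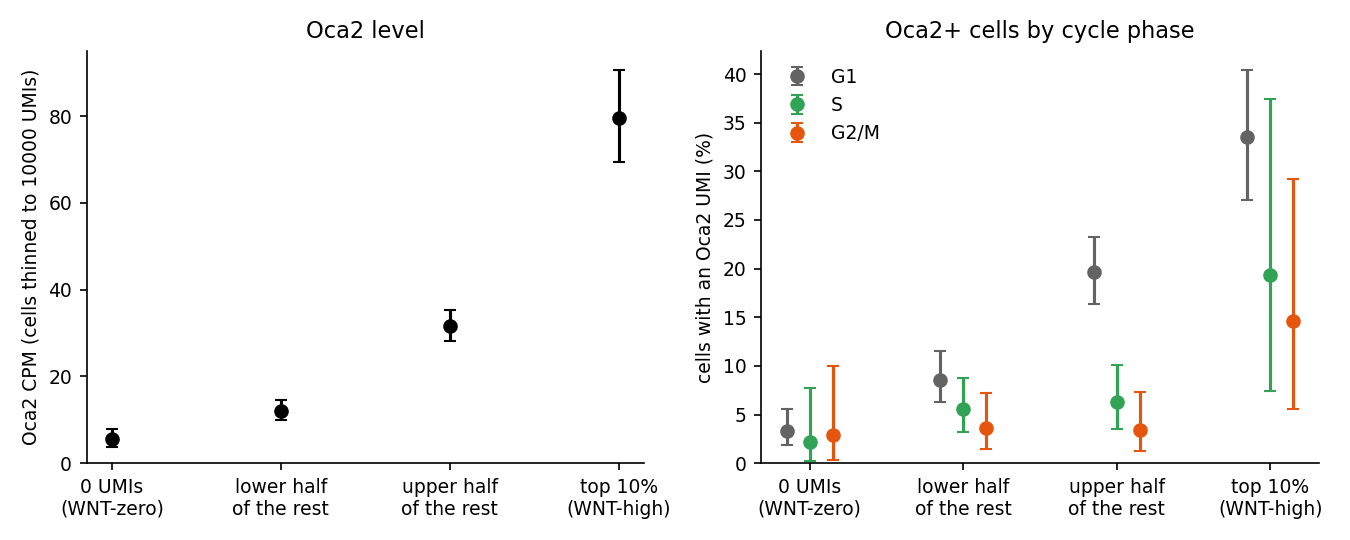
*Oca2* in the ranked cells. Left, *Oca2* CPM in WNT-zero, lower, upper and WNT-high cells thinned to 10000 UMIs, with bars for the 95% counting interval. Right, percent of cells with at least 1 *Oca2* UMI in each group by assigned phase, with exact binomial 95% intervals. The CPM rises from 5.52 to 79.5, and WNT-high cells have the highest share in G1, S and G2/M.

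Across the transcriptome 5822 genes reached 20 CPM in at least 1 of the groups, the 4 choosing genes left out. Of these 99 (1.7%) were at least 2-fold higher in WNT-high cells and 44 (0.756%) at least 2-fold lower. The counts here and in the lists below include genes that reached this level in 1 group alone. Among others, *Wnt4*, *Oca2*, *Slc24a4*, *Irf4*, *Tcf7*, *Ccnb1*, *Lix1*, *Maob*, *Daam2*, *Wdr95* and *Nhs* reached it only in WNT-high cells. *Flg*, *Krtdap*, *Casp14*, *Sprr1a*, *Lor*, *Crct1*, *Sbsn*, *Nkain4*, *Iigp1* and *Adamts5*, again among others, reached it only in WNT-zero cells. For such genes, being high in 1 group decided that they were tested. At 1.5-fold, a limit added after the values were seen, 321 (5.51%) were higher and 149 (2.56%) lower. The median log2 ratio of all tested genes was 0.06, and 59.9% were above 0. Scaling by trimmed means of M-values moved the median to −0.02 and the counts to 85 higher and 51 lower. Below, "higher" and "lower" for a gene mean at least 2-fold unless a ratio is given. The count of each list stands beside the shares of all tested genes, 1.7% higher and 0.756% lower.

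Of 20 pigmentation genes 19 were tested, 8 were at least 2-fold higher, 13 at least 1.5-fold higher, none was lower at either limit, and all 19 ratios were above 0. With cells chosen on *Axin2*, *Nkd1*, *Sp5* or *Lef1* alone 3, 6, 1 and 2 of the 19 passed 2-fold, and none was lower. Their median log2 ratio was 0.84, against 0.06 for all genes tested. The 8 included genes of the melanosome's ion balance. *Slc24a5*, a potassium-dependent sodium-calcium exchanger of melanosomes, was at 1685 CPM in WNT-high and 536 CPM in WNT-zero cells (log2 ratio 1.65, interval 1.59 to 1.72). *Slc24a4*, of the same family, was at 40.3 and 8.62 CPM (2.22), and *Oca2* belongs here too. Both *Slc24a4* and *Oca2* reached the limit of 20 CPM only in WNT-high cells. *Trpm1*, a cation channel gene and a known *Mitf* target, was at 1515 and 264 CPM (2.52, 2.44 to 2.61), with 464 and 892 CPM in the lower and upper cells. It was detected in 93.9% of WNT-high and 55.7% of WNT-zero cells.

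Of the genes for melanin synthesis, *Tyr*, the rate-limiting enzyme, was at 896 CPM in WNT-high and 413 CPM in WNT-zero cells (log2 ratio 1.12). *Dct* (0.22), which also served the cell filter, and *Tyrp1* (0.21), the other enzymes of the pathway, were near the ratio of most genes. *Mlana*, a melanosome protein, was at 8309 and 3986 CPM (1.06), while *Pmel*, which builds the melanosome's fibrils, had a ratio of 0.57. *Gpr143*, a receptor of the melanosome membrane, was at 111 and 37.2 CPM (1.57), and *Mc1r*, the receptor for melanocortin, at 153 and 54.3 CPM (1.49). *Rab27a*, which tethers melanosomes for transport, reached 0.84, and the transporter *Slc45a2* 0.61. *Atp7a*, which supplies copper to tyrosinase, had the smallest ratio of the list, 0.04.

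The increase in pigment transcripts was graded over the ranking. The median cell held 151 UMIs of the list per 10000 in WNT-zero, 160 in lower, 192.5 in upper and 255 in WNT-high cells, and 11, 11, 12 and 13 of the 20 genes were detected. Groups overlapped at the level of single cells. Without *Oca2*, WNT-high cells ranged from 1 to 527 pigment UMIs with a median of 254, and WNT-zero cells from 5 to 391 with a median of 151. When cells with an *Oca2* UMI were left out before the choice, the list had a median log2 ratio of 0.50, and when the choice was made among G1 cells it was 1.01.

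Of 15 melanocyte transcription factor genes 12 were tested, 2 were higher, 3 passed 1.5-fold and none was lower, with a median of 0.23. With cells chosen on *Axin2*, *Sp5* or *Lef1* alone none of the 12 passed 2-fold, while 1 did with *Nkd1* alone. *Irf4* was at −0.10 with *Sp5* alone. *Tfeb*, a relative of *Mitf* known for driving lysosome genes, was at 165 CPM in WNT-high and 48.8 CPM in WNT-zero cells (log2 ratio 1.76). *Irf4*, a regulator of *Tyr*, was at 41.7 and 19.3 CPM (1.11). *Mitf* itself was at 626 and 359 CPM (0.80). *Sox10* and *Pax3*, which act upstream of *Mitf*, had ratios of 0.33 and 0.05, and *Tfe3*, another relative of *Mitf*, −0.43.

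Of 15 receptor genes for signals of the niche 10 were tested, 2 were higher and none lower, with a median of −0.12 and 6 of 10 below 0. None passed 2-fold with *Axin2*, *Sp5* or *Lef1* alone, while 2 did with *Nkd1* alone. The higher ones were *Mc1r*, given above, and *Ednrb*, the endothelin receptor of the lineage, at 1209 CPM in WNT-high and 503 CPM in WNT-zero cells (log2 ratio 1.27). *Met*, the hepatocyte growth factor receptor, passed 1.5-fold with 144 and 80.7 CPM (0.83). *Kit*, the stem cell factor receptor, had a ratio of 0.44. *Igf1r* was at 29.9 and 51.4 CPM (−0.78) and *Erbb3* had a ratio of −0.39.

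Most other genes of the WNT pathway were too low to compare. Among 15 other feedback inhibitors only 2 were abundant enough, *Nkd2* with a log2 ratio of 0.46 and *Dkk3* with −0.05, and neither passed 2-fold (list median 0.20). Of 11 other WNT targets 6 were tested and 1 was higher, *Tnfrsf19*, a receptor of the tumour necrosis factor family. It was at 60.8 CPM in WNT-high and 22.4 CPM in WNT-zero cells (1.44). None of the 6 passed 2-fold with *Axin2*, *Nkd1*, *Sp5* or *Lef1* alone, or in the choice among cells with 0 *Nkd1* UMIs. *Tcf7*, a TCF/LEF factor, passed 1.5-fold with 32.7 and 19.1 CPM (0.77). *Ccnd1* (0.33), *Cd44* (−0.09), *Bambi* (−0.24) and *Myc* (−0.39) passed neither limit, and the list median was 0.12.

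Few receptor genes were abundant enough to compare. Of 17 WNT receptor genes *Ryk* (0.35) and *Lrp6* (−0.09) were tested and neither passed 2-fold, with a median of 0.13. Of 20 effector genes 11 were tested and none passed 2-fold in either direction, with a median of 0.10. *Ctnnb1*, which encodes β-catenin, was at 617 and 575 CPM (0.10). The effectors ranged from −0.49 for *Axin1*, the constitutive scaffold paired with *Axin2*, to 0.39 for *Apc*, and *Tcf7l2* was at −0.32.

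Of 20 genes for WNT ligands, R-spondins and their secretion, 11 had no UMI in either group and 2 were tested. *Wls*, the carrier that brings WNT ligands to the cell surface, was at 156 CPM in WNT-high and 109 CPM in WNT-zero cells (log2 ratio 0.51). The other was *Wnt4*, whose ratio was the largest of all tested genes. It was at 42.1 CPM in WNT-high and 1.72 CPM in WNT-zero cells (4.61, interval 3.68 to 5.71), from 117 and 10 UMIs, and was detected in 20.9 and 1.72% of cells. The lower and upper cells were at 2.60 and 9.54 CPM. No single cell carried the difference, since the highest WNT-high cell held 6.84% of the group's *Wnt4* UMIs. The ratio was smaller when the cells were chosen on *Axin2* (1.83), *Sp5* (1.74) or *Lef1* (2.06) alone. It was under 2-fold when *Axin2*, *Sp5* and *Lef1* chose among cells with 0 *Nkd1* UMIs (0.91, interval −0.99 to 2.60).

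Keratinocytes also express *Wnt4*, so their transcripts are given beside it. Over all UMIs, *Wnt4* was at 135 CPM in the 90 keratinocyte-rich barcodes and 39.3 CPM in WNT-high cells, or 29.1% of the keratinocyte level. The 12 epidermal genes in WNT-high cells were at 0.200% of their keratinocyte level and *Krt5* at 0.0766%. In WNT-zero cells the epidermal genes were at 0.444% of the keratinocyte level. Without the cells that held at least 10 UMIs of the epidermal list, the *Wnt4* ratio was 4.88 and the *Oca2* ratio 3.83.

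**Figure D3:**
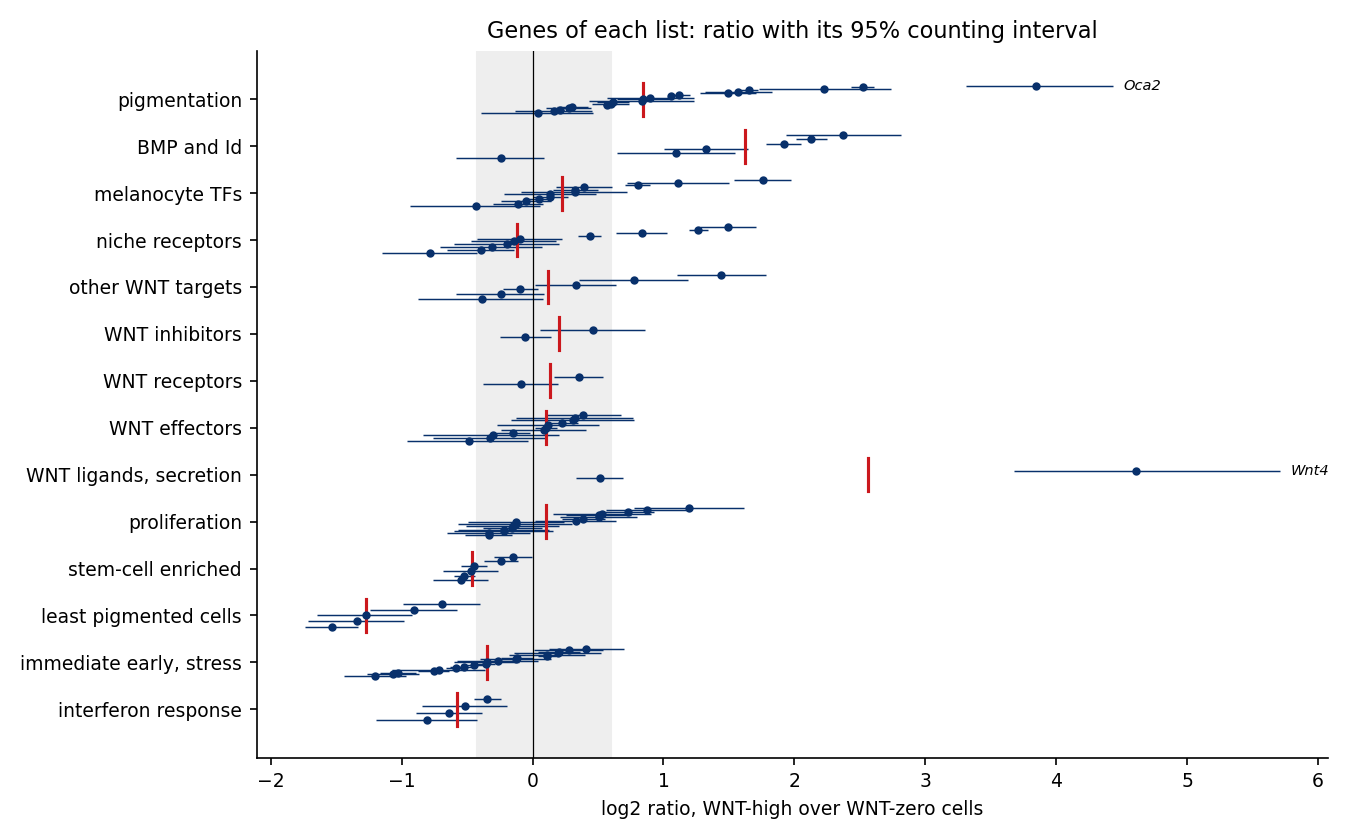
Log2 ratio of WNT-high to WNT-zero cells for the tested members of each gene list. Points are genes with their 95% counting interval, red ticks mark the median of a list, and the grey band spans the 5th to 95th percentile of all 5822 tested genes (−0.42 to 0.60). The pigmentation and the BMP and Id lists lie mostly to the right of the band, the WNT effectors within or near it, and the marks of the least pigmented cells to its left.

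Genes of the inhibitor of differentiation (Id) family, which encode partners that block basic helix-loop-helix factors and are known targets of bone morphogenetic protein (BMP) signals, were higher in WNT-high cells. Of the 9 genes of the BMP and Id list 6 were tested and 5 were higher, against 1.7% of all tested genes. The list median was 1.62, with 1289 against 363 CPM summed. *Id3* was at 640 CPM in WNT-high and 146 CPM in WNT-zero cells (log2 ratio 2.13, interval 2.01 to 2.25) and was found in 76.3 and 41.9% of cells. *Id2* was at 456 and 121 CPM (1.92), *Id1* at 56.1 and 10.9 CPM (2.37), and *Id4* at 31.3 and 14.7 CPM (1.09). Of these, *Id1* and *Id4* reached the limit of 20 CPM only in WNT-high cells. *Smad7*, an inhibitor induced by BMP and TGF-β signals, was at 65.1 and 26.0 CPM (1.32). *Bambi*, a decoy receptor of the same pathway, had a ratio of −0.24. With cells chosen on *Axin2* alone none of the 6 passed 2-fold (median 0.46), and among cells with 0 *Nkd1* UMIs 2 passed and 2 were below 0 (median 0.91). In keratinocyte-rich barcodes *Id3* was at 175 CPM over all UMIs, against 689 CPM in WNT-high cells, so the *Id3* of WNT-high cells was above that of the keratinocytes. *Id1* stood at 76.5 and 55.1 CPM.

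Most WNT-high cells were assigned to G1, a class that does not separate cells in G1 from resting cells, and the difference of their share in S or G2/M from that of WNT-zero cells changed with how the cells were chosen. By the expression of 43 S and 54 G2/M genes, 25.9% of WNT-high cells (72 of 278, exact interval 20.9 to 31.5) and 27.8% of WNT-zero cells (161 of 580, 24.1 to 31.6) were assigned to S or G2/M. The difference was −1.86 percentage points (Newcombe 95% interval −7.97 to 4.61). The cells between were in these phases more often, 50.5% of the lower and 42.9% of the upper cells, against 40.7% of all 2785. Against all other cells together, WNT-high cells were therefore lower, 25.9 against 42.3%. Both groups at the ends of the ranking were shallower than the lower and upper cells. Beyond the choice on thinned UMIs and the depth range given next, the part of depth in the shares was not tested. When the cells were chosen on thinned UMIs, the share in S or G2/M in WNT-high cells minus that in WNT-zero cells was −11.2 percentage points (interval −16.7 to −5.27). The WNT-zero cells of that choice were deeper, with a median of 23463 against 17700.5 UMIs. Of them 42.2% were in S or G2/M, against 27.8% of the WNT-zero cells chosen on all UMIs. Among cells of 15000 to 30000 UMIs the difference was −14.5 percentage points (interval −21.5 to −6.41). There 11.8% of WNT-high and 26.2% of WNT-zero cells were in these phases. With *Sp5* alone the direction turned, to 10.1 points (3.98 to 16.3), and with the top 20% the difference was 4.02 points.

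By phase, G1 took 74.1% of WNT-high and 72.2% of WNT-zero cells, S 11.2 (7.70 to 15.5) and 15.7% (12.8 to 18.9), and G2/M 14.7 and 12.1%, with overlapping exact intervals in each phase. The share in S or G2/M was also read in cells with and without an *Oca2* UMI. The shares with and without *Oca2* were 22.2 and 27.9% in WNT-zero, 35.9 and 51.5% in lower, 16.3 and 47.1% in upper, and 14.8 and 30.5% in WNT-high cells. The 18 *Oca2*+ WNT-zero cells give only a coarse value (exact interval 6.41 to 47.6). The intervals with and without *Oca2* were apart in the upper cells and overlapped in the other 3 groups. The 72 WNT-high cells in S or G2/M were 6.35% of the 1133 cells assigned to S or G2/M.

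**Figure D4:**
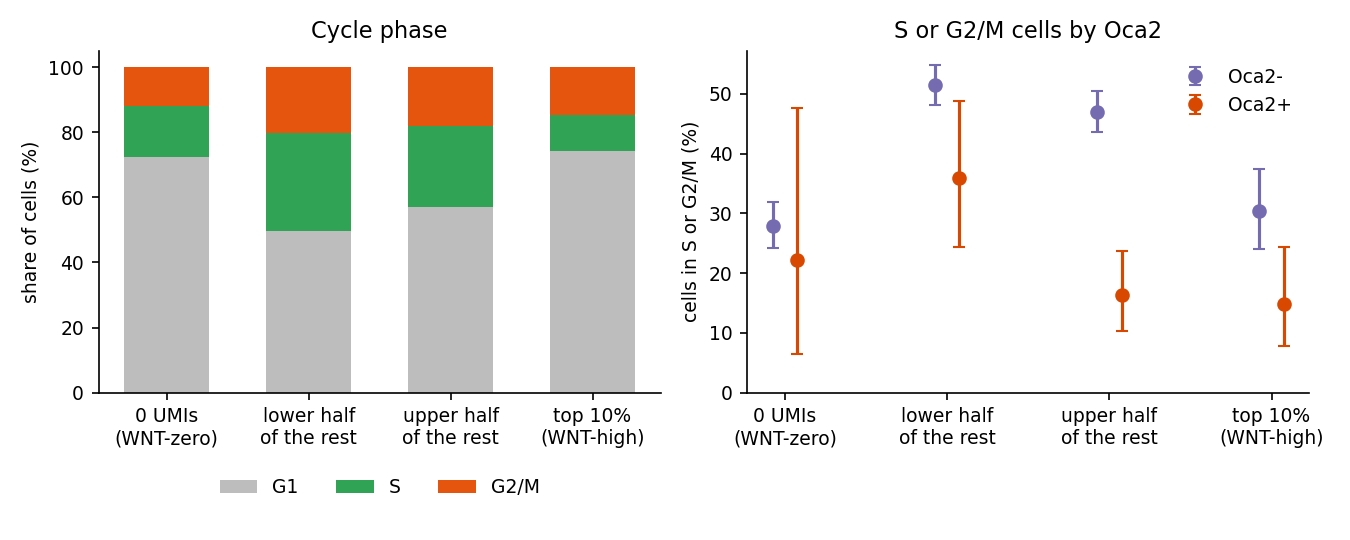
Cell-cycle phases in the ranked cells. Left, stacked shares of G1, S and G2/M in WNT-zero, lower, upper and WNT-high cells, in percent. Right, percent of cells in S or G2/M for cells with and without an *Oca2* UMI in each group, with exact binomial 95% intervals. Both ends of the ranking have about 3 in 4 cells in G1, and the *Oca2*+ points lie below the others, with intervals that are apart in the upper cells and overlap in WNT-zero, lower and WNT-high cells.

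Of 18 proliferation genes 16 were tested, 1 was higher, 3 passed 1.5-fold and none was lower, with a median of 0.10. The higher one was *Ccnb1*, the mitotic cyclin B1, at 37.1 CPM in WNT-high and 16.2 CPM in WNT-zero cells (log2 ratio 1.19), and its ratio turned to −0.83 among G1 cells. Among cells of 15000 to 30000 UMIs the list went the other way, with 8 of the 16 genes at least 2-fold lower, 15 of 16 below 0 and a median of −0.90. *Cdk1* (0.88) and *Top2a* (0.73), which act in G2 and mitosis, passed 1.5-fold, *Mki67* was at 0.51, and the replication genes *Pcna* and *Mcm3* were both at −0.33. Of 7 inhibitors of cyclin-dependent kinases 4 were tested and none was higher or lower, with a median of 0.39. *Cdkn2c*, an inhibitor of the G1 kinases, passed 1.5-fold (0.80), and *Cdkn1a*, a broad inhibitor of these kinases, was at −0.42.

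The 12 named genes with the largest rise, taken by a rule on the size of the log2 ratio and its interval, included *Wnt4*, *Oca2*, *Trpm1* and *Id3*. *Npy*, a neuropeptide gene, was at 336 CPM in WNT-high and 31.7 CPM in WNT-zero cells (log2 ratio 3.41), and was found in 58.6 and 16.0% of cells. *Cthrc1*, a secreted protein linked to WNT and planar polarity signals, was at 312 and 64.8 CPM (2.27), and 74.5% of WNT-high cells had it. *Daam2*, a formin that binds Dishevelled, was at 67.3 and 13.3 CPM (2.34). *Cxcl14*, a chemokine gene, was at 222 and 50.2 CPM (2.15), found in 39.9 and 15.7% of cells. It is also expressed by keratinocytes, and over all UMIs WNT-high cells were at 208 CPM and keratinocyte-rich barcodes at 174 CPM.

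The other 4 were *Maob*, a monoamine oxidase, at 58.3 CPM in WNT-high and 10.9 CPM in WNT-zero cells (log2 ratio 2.42), *Nhs*, a regulator of the actin cytoskeleton, at 57.9 and 11.2 CPM (2.37), *Lix1* at 28.8 and 2.93 CPM (3.30) and *Wdr95* at 27.3 and 4.48 CPM (2.61). In the plot of all genes these stand above the bulk at their level of expression.

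**Figure D5:**
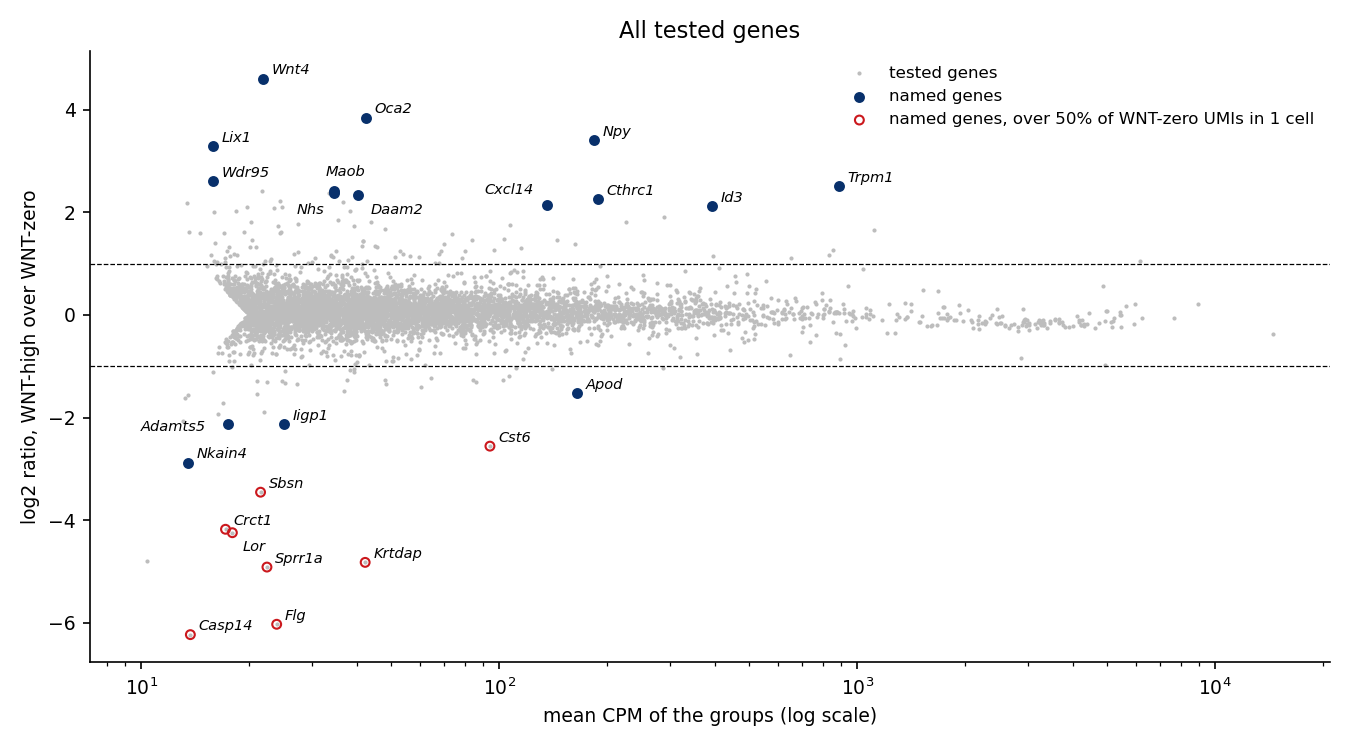
All 5822 tested genes, with the mean CPM of WNT-high and WNT-zero cells on the x axis (log scale) and the log2 ratio on the y axis, dashed lines at 2-fold. Dark blue points are the named genes, and open red circles are named genes with over 50% of their WNT-zero UMIs in 1 cell. The genes with the lowest ratios, such as *Flg* and *Casp14*, carry the red circles, and *Wnt4* and *Oca2* have the highest ratios.

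Most of the named lower genes rested on 1 cell. *Flg*, *Krtdap*, *Casp14*, *Sprr1a*, *Lor*, *Crct1*, *Sbsn* and *Cst6*, genes of the upper epidermis and its cornified layer, had log2 ratios from −6.23 to −2.56. All 8 had their highest WNT-zero value in the same cell, which held 75.9 to 100% of their UMIs in the group. That cell had 20359 UMIs, 1457 of them from the epidermal list, 0 from *Krt10* and *Krt14*, and 1 from *Dct*, so it passed the filter. Among WNT-zero cells 21 had at least 10 epidermal UMIs before thinning and held 1797 of the 2417 such UMIs, and among WNT-high cells 7 held 372 of 681. Without those cells *Lor*, *Crct1* and *Sbsn* had ratios of 0.31, 1.04 and 0.34, and 102 genes were higher and 35 lower. Of the 4 compared genes of the epidermal list, 1 was still at least 2-fold lower.

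The other 4 lower genes did not rest on that cell. *Apod*, a lipid carrier, was at 84.9 CPM in WNT-high and 245 CPM in WNT-zero cells (log2 ratio −1.53, interval −1.74 to −1.33), and found in 40.6 and 62.1% of cells. *Nkain4*, a partner of the sodium pump, was at 3.24 and 23.8 CPM (−2.88, −4.04 to −1.91). *Adamts5*, a matrix protease, was at 6.47 and 28.4 CPM (−2.14). *Iigp1*, an interferon-induced GTPase, was at 9.35 and 40.7 CPM (−2.12), with 19.9% of its WNT-zero UMIs in 1 cell, and its ratio turned to 0.71 with *Lef1* alone.

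*Apod* is also one of 5 marks of the least pigmented cells, a list taken from earlier results on these samples and so not independent evidence of its direction. Of the 5 genes 3 were lower, all 5 were lower by 1.5-fold, and the median was −1.28, with 221 CPM summed in WNT-high and 521 CPM in WNT-zero cells. None of the 5 was 2-fold lower with *Axin2*, *Sp5* or *Lef1* alone, where the medians were −0.37, −0.65 and −0.23. With *Nkd1* alone 3 of the 5 were (median −1.05), and without *Nkd1* in the choice none was (median −0.80). *Fxyd5*, a regulator of the sodium pump and of adhesion, was at 27.3 and 69.3 CPM (log2 ratio −1.34), *Capn6*, a calpain relative, at 28.1 and 67.9 CPM (−1.28), *Cavin3* at −0.91 and *Cd200* at −0.69. A further 6 genes that the study plotted for its stem cells, again chosen on these samples, were all tested, and none passed 2-fold or 1.5-fold. All 6 ratios were below 0, with a median of −0.46 that turned to 0.07 with *Lef1* alone, among them *Cd9* with 605 and 868 CPM (−0.52), *Sept4* (−0.55) and *Cdh1* (−0.47).

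Of 19 immediate early and stress genes all were tested, none was higher, 3 were lower, 5 were lower by 1.5-fold and 13 were below 0, with a median of −0.35. The direction was not stable, since the median was 0.32 with *Lef1* alone, 0.02 without *Nkd1* in the choice and 0.01 with a minimum of 5000 UMIs, none of the 19 being 2-fold lower in these. *Hspb1*, a small heat shock protein, was at 64.4 CPM in WNT-high and 148 CPM in WNT-zero cells (log2 ratio −1.20), *Atf3*, a stress-induced factor, at 189 and 384 CPM (−1.03), and *Fosb* at −1.06. *Fos* was at −0.53. These genes respond to tissue dissociation as well, and the part of handling in the difference was not tested. Of 10 interferon response genes 4 were tested, none passed 2-fold, 2 were lower by 1.5-fold and all 4 were below 0, with a median of −0.58, among them *Ifit3* (−0.80) and *Isg15* (−0.64). That median turned to 0.27 with *Lef1* alone.

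The remaining lists stayed near the bulk of genes. Of 12 feedback genes of the ERK kinase pathway 8 were tested, none was higher or lower, and the median was 0.21, with the factor *Etv4* at 0.85. Of 15 adhesion and dendrite genes 11 were tested, none passed 2-fold, and the median was −0.06, with N-cadherin, *Cdh2*, lowest at −0.71. Of 6 Notch targets only *Hes1* was tested, with −0.19.

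WNT-high cells varied among themselves, and are described here by whether they had an *Oca2* UMI. The 81 with an *Oca2* UMI had a median of 27152 UMIs and the 197 without 22220. The sum of the 4 WNT feedback genes, which the choice itself held above 1 boundary in both, was 335 CPM with and 341 CPM without *Oca2*. Pigmentation transcripts other than *Oca2* were at 35494 and 22572 CPM, against 15336 CPM in WNT-zero cells without *Oca2*. *Trpm1* was at 2604 and 1068 CPM, against 233 CPM in WNT-zero cells without *Oca2*. The 18 WNT-zero cells with an *Oca2* UMI were at 28678 CPM of pigmentation transcripts, 1250 CPM of *Trpm1* and 1033 CPM of *Id1* to *Id4*, above the WNT-high cells without *Oca2* in pigmentation.

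Other groups of genes were read in the same cells. *Id1* to *Id4* summed to 1669 CPM in *Oca2*+ and 984 CPM in *Oca2*− WNT-high cells, against 293 CPM in WNT-zero cells. *Wnt4* was at 53.1 (38.4 to 71.5) and 37.6 (29.5 to 47.2) CPM, with overlapping intervals. The 5 marks of the least pigmented cells were at 95.1 and 273 CPM, and proliferation genes at 788 and 1166 CPM. By phase, the 206 WNT-high cells in G1 had 28232 CPM of pigmentation transcripts without *Oca2*, the 31 in S 21258 CPM and the 41 in G2/M 20659 CPM, each above the WNT-zero cells of its phase (16445, 13410 and 14629 CPM). *Wnt4* was at 48.1, 25.8 and 24.4 CPM in these phases, and *Id1* to *Id4* at 1151, 1174 and 1354 CPM.

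The mature melanocytes of the bulb are set beside these values without a comparison, since their library was made with version 2 of the droplet kit rather than version 3 and from shallower cells (3734 cells with over 5000 UMIs, median 14286.5). There, over all UMIs, *Nkd1* was at 486 CPM, *Lef1* at 77.0 CPM, *Sp5* at 21.8 CPM and *Axin2* at 21.4 CPM. *Oca2* was at 554 CPM and in 96.2% of cells, *Trpm1* at 4197 CPM, *Slc24a5* at 4454 CPM, *Npy* at 4068 CPM, *Cthrc1* at 792 CPM, *Id3* at 1570 CPM and *Wnt4* at 69.2 CPM. Those genes of the WNT-high cells were thus present in the bulb.

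Other genes of the WNT-high cells were low there. *Lix1* was at 1.91 CPM in bulb melanocytes, *Maob* at 5.96 CPM, *Cxcl14* at 6.53 CPM and *Daam2* at 7.10 CPM. Of the genes lower in WNT-high cells, *Capn6* was at 0.30 CPM and *Fxyd5* at 1.84 CPM in the bulb, while *Apod* was at 91.5 CPM.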

How the data were processed

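Single-cell RNA-seq was available for 2 libraries of GFP+ skin cells. The authors deposited whole-number UMI counts per gene and barcode, not normalized, made with Cell Ranger 6.0.1 on mm10 per the processing notes in the labels. The lowest barcode of the early-anagen matrix held 500 UMIs. The telogen library of the study was not analysed here.

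Early-anagen barcodes with over 10000 UMIs, under 5% mitochondrial UMIs, at least 1 *Dct* UMI and fewer than 3 UMIs of *Krt10* and *Krt14* together were kept. WNT-high cells were the top 10% by the share of all UMIs from *Axin2*, *Nkd1*, *Sp5* and *Lef1*. For all readouts each cell was thinned without replacement to 10000 UMIs, and the sums for each group of cells are given per 1000000 UMIs (CPM). Genes with at least 20 CPM in either group were tested, meaning that their log2 ratio was set against a limit of 2-fold. Ratios have exact 95% intervals of 2 Poisson sums, shares Clopper-Pearson intervals and the difference of shares a Newcombe interval. All cover counting error only. Phases came from CellCycleScoring in Seurat 5.3.0 under R 4.3.3, run on the thinned cells. The study also used Seurat's cell cycle scoring, in an earlier version. No doublet caller was run, and leaving out the 5% of cells with most UMIs was tried instead. The scripts were tested on simulated counts (Python 3.11.15, numpy 2.4.6, scipy 1.17.1, pandas 2.3.3, matplotlib 3.10.9), and TMM factors came from edgeR 4.0.16.

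Outside the gene lists, the text names the 12 genes with the highest lower bound and the 12 with the lowest upper bound of the interval, without mitochondrial, ribosomal protein and unnamed genes and the 4 choosing genes. The cells, gene lists and limits were chosen with earlier results of these data known. Promoter windows are from RefSeq for GRCm38.p6, and 15 of the 20 pigmentation genes had one. One list of markers of another cell type is not reported here.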

Additional observations from a re-analysis of the deposited data

How the results depend on the processing

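With 1 library per condition, no replicate could be left out, and counting intervals say nothing of variation between mice. No paired analysis was possible because there was 1 library per condition. The *Oca2* log2 ratio, 3.85 as reported, was above 0 in all 27 alternatives, from 1.02 to 4.04, while the counts of genes ranged from 15 to 144 higher and from 12 to 88 lower over 29 alternatives. Choosing on thinned UMIs gave an *Oca2* ratio of 2.63, 50 higher and 16 lower genes, and a difference in cycling share of −11.2 percentage points. Choosing and reading in separate UMIs gave 2.92 for *Oca2* and 21 lower genes. Against all other cells the values were 2.14, 43 higher, 15 lower and −16.4 points. Without *Axin2* in the choice *Oca2* was at 2.96, without *Nkd1* at 2.58 with 18 lower genes, and with a minimum of 5000 UMIs at 3.23. The top 5% gave 70 lower genes and −11.2 points, and cells of 15000 to 30000 UMIs 88 lower genes and −14.5 points. G1 cells gave 70 lower genes, totals without mitochondrial and ribosomal protein genes 69, and a minimum of 50 CPM, which tests fewer genes, 52 higher and 19 lower. The following alternatives were chosen after seeing the data. With *Axin2* alone the values were 1.76 for *Oca2*, 15 higher, 19 lower and −10.5 points. *Nkd1* alone gave 2.75, 56 higher and 26 lower, *Sp5* alone 1.02, 48 higher, 12 lower and 10.1 points, and *Lef1* alone 1.48, 25 higher, 22 lower and −15.2 points. In cells with 0 *Nkd1* UMIs, choosing on the other 3 genes gave 2.24, 26 higher and 20 lower. With *Axin2*, *Sp5* or *Lef1* alone no transcription factor, niche receptor, other WNT target or mark of the least pigmented cells passed 2-fold. With *Nkd1* alone 1 transcription factor, 2 niche receptors, 3 marks and no other WNT target passed. With *Lef1* alone the stress list had a median of 0.32 and the interferon list one of 0.27. Sign changes were counted only for genes called at 2-fold, though genes not called changed sign as well. With *Lef1* alone 4 of the 6 genes plotted by the study for its stem cells were above 0. Of 4491 log2 ratios for 161 genes over the alternatives, 3334 stayed within the reported interval and 1146 moved beyond it. The other 11 were sign changes of called genes. These were *Ccnb1* (−1.73 in cells of 15000 to 30000 UMIs, −0.83 in G1 and −0.82 with *Lef1* alone), *Crct1* (0.51 in S and G2/M cells and 1.04 without cells rich in epidermal UMIs), *Lor* and *Sbsn* (0.31 and 0.34 without those cells), *Irf4* (−0.10 with *Sp5* alone), *Iigp1* and *Atf3* (0.71 and 0.20 with *Lef1* alone) and *Id4* (−0.33 in cells with 0 *Nkd1* UMIs). Except where stated, the cause was not tested. A choice among cells that had *Xist* but lacked Y-linked transcripts could not be made, since no cell had that pattern.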

Other observations

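The genes in these paragraphs were chosen after their values were seen. They were picked for their ratios from no list, so they show nothing about a pathway as a whole. *Nrp1*, a co-receptor of semaphorins and of vascular endothelial growth factor, had 171 UMIs in WNT-high and 87 in WNT-zero cells (log2 ratio 2.04, counting interval 1.66 to 2.43) and was detected in 39.2 and 12.4% of cells. *Plxna4*, a plexin that pairs with neuropilins, was at 25.5 and 6.38 CPM (interval of the log2 ratio 1.41 to 2.62). The semaphorin genes *Sema6d* and *Sema6a* stood at 68.0 and 19.5 CPM (1.80) and at a ratio of 1.15, and the ephrin gene *Efna5* at 40.3 and 19.7 CPM (1.04).

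*Dact1*, which encodes a Dishevelled-binding regulator of WNT signals, was at 36.7 CPM in WNT-high and 6.90 CPM in WNT-zero cells (log2 ratio 2.41, interval 1.87 to 2.98), and 1 cell held 22.5% of its WNT-zero UMIs. *Kif26b*, a kinesin of noncanonical WNT signalling, was at 55.4 and 15.3 CPM (1.85). *Fst*, which encodes the activin antagonist follistatin, was at 60.1 and 13.1 CPM (2.20). The amino acid transporter genes *Slc7a8* and *Slc7a5* were at 73.0 and 22.9 CPM (1.67) and at 163 and 66.4 CPM (1.30).

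Among lower genes were *Col4a1*, a basement membrane collagen, at 7.91 CPM in WNT-high and 25.9 CPM in WNT-zero cells (log2 ratio −1.71), and the complement gene *C4b* at 19.4 and 54.5 CPM (−1.49). The interferon-induced genes *Gbp2* and *Cxcl10* were at 38.5 and 90.2 CPM (−1.23) and at 33.1 and 87.9 CPM (−1.41). *Cxcl9* had a ratio of −2.07, but 1 cell held 74.8% of its WNT-zero UMIs.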
